A study of Homo sapiens with 2 samples.

Results

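The genes described here encode the machinery that licenses and fires DNA replication origins and that copies DNA at the fork. They were chosen by name, as the rows of the deposited gene table that carry 1 of 45 listed symbols. Each of the 45 symbols had exactly 1 row, of 50867 gene rows in all. RNA came from HCT116, an established human colorectal carcinoma line, into which either control siRNA or siRNA targeting PHF5A, a small subunit of the SF3b splicing complex, had been transfected. The study asked which RNAs depend on PHF5A in such cells. Each treatment gave 1 library, 2 in all, so every difference below compares 2 libraries, has no replicate check and carries no p-value. The labels give neither the time after transfection nor the siRNA sequence, so effects of the siRNA on other transcripts cannot be told apart from those of PHF5A loss.

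Replication starts at origins bound by the origin recognition complex (ORC), which with CDC6 and CDT1 loads the MCM2-7 helicase onto DNA in G1, a step called licensing. Geminin, the product of GMNN, blocks CDT1 later in the cycle. In S phase CDC45 and the GINS complex join MCM2-7 to form the active helicase, and the polymerases alpha, delta and epsilon copy DNA behind it with the PCNA clamp, its RFC loader and the single-strand binding protein RPA. Many of these genes are known targets of E2F transcription factors and are most active around the G1 to S transition.

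Total counts were 26552789 for control and 25897412 for knockdown. PHF5A itself had 367 counts in control and 91 in knockdown RNA, 3.93-fold lower as a share of the library total (CPM, counts scaled to a fixed total), with a 95% exact counting interval of 3.12 to 5.0. Colonic epithelial keratins were abundant in both libraries: KRT19 had 1046.3 and 1031.6 FPKM (fragments per kilobase of transcript, scaled to the library total) in control and knockdown, KRT18 had 526 and 598 and KRT8 had 420 and 370. KRT20 and VIL1, markers of differentiated colonic cells, had at most 1 count in either library. Of the 8 colonic epithelial markers 6 reached 1 FPKM, with 371861 and 354583 counts in sum, and the 1 that was at least 1.5-fold lower, named after its values were seen, was CDX2 (6.90 and 3.16 FPKM). The 8 fibroblast markers summed to 2889 and 878 counts and the 7 blood markers to 550 and 399, with CD3E at 0 in both. The libraries differed in a way the labels do not give: 16 of 16 heart muscle markers reached 1 FPKM in the control library, 15 of them were at least 2-fold lower in the knockdown library, and together they held 99623 counts (0.375% of the total) in control and 341 (0.00132%) in knockdown RNA. Of these, ACTC1 had 9182 and 1 counts, MYH7 had 10058 and 0 and PLN had 1758 and 0. Their part in the values below was not tested. The share of counts in protein-coding genes was 78.4% in control and 70.2% in knockdown RNA, so a gene whose share of the messenger RNA was constant comes out lower in the knockdown library. In bulk RNA, fewer cells in S phase and less of a transcript per cell cannot be told apart.

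The start regions of 4 MCM2-7 genes and of POLD4 are shown first, because the results turn on the unlike values of these genes: MCM2, MCM3 and MCM7 were lower in the knockdown library, MCM6 was nearly level, and POLD4 had the highest ratio of the 45. Each is the RefSeq window of 250 bases before to 50 bases after the most upstream transcript start listed, in build GRCh38.p14, written 5′ to 3′ along the gene. The windows are chr3:127598161-127598460 on the plus strand for MCM2, chr6:52284693-52284992 on the minus strand for MCM3, chr2:135876394-135876693 on the minus strand for MCM6, chr7:100101348-100101647 on the minus strand for MCM7 and chr11:67353547-67353846 on the minus strand for POLD4. Capitals mark the 8-letter words of the E2F consensus: TTTCCCGC, TTTCGCGC, TTTGCCGC and TTTGGCGC, searched on both strands.
MCM2: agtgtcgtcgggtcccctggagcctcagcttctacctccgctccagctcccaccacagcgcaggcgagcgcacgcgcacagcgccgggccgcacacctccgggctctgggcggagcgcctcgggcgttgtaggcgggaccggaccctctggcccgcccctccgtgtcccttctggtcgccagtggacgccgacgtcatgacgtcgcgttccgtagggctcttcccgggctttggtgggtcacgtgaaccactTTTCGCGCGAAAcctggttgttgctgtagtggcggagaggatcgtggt
MCM3: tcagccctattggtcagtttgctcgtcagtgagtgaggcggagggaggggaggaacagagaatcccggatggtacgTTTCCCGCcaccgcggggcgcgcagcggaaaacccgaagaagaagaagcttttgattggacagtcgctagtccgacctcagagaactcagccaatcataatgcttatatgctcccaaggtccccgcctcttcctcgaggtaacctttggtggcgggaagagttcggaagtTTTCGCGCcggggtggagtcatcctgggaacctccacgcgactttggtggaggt
MCM6: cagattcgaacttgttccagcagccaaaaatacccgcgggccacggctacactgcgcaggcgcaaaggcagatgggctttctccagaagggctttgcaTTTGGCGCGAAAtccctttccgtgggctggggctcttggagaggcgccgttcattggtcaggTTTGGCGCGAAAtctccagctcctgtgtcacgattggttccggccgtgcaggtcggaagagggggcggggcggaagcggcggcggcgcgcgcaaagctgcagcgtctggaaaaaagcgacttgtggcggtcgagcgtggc
MCM7: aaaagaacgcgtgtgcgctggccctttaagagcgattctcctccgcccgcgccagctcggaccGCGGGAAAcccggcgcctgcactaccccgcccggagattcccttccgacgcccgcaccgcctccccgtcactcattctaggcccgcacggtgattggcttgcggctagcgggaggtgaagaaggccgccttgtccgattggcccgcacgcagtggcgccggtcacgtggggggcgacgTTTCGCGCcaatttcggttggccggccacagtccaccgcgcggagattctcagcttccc
POLD4: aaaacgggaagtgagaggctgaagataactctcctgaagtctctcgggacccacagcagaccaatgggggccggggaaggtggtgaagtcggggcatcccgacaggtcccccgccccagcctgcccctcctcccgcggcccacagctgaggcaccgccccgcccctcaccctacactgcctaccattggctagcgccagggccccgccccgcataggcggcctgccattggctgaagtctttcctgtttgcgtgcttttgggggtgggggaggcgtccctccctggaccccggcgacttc

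The E2F words stood in all 4 MCM windows shown. MCM2 had 2 words, overlapping on opposite strands, that began 3 and 7 bases after the start. MCM3 had 2, at 174 and 4 bases before it, and MCM7 had 2, at 187 and 9 bases before it. MCM6 had 4, in 2 overlapping pairs that began 152 and 148, and 90 and 86, bases before the start. POLD4 had none and had 3 copies of CCAAT, the word read by the factor NF-Y. The deposited span of POLD4 reaches 67356972, upstream of the window shown, so counted transcripts may start outside it. Of the 39 members with a window in the table, 19 (48.7%) had an E2F word in at least 1 listed window, against 1090 of 27305 genes (3.99%). The 27305 are all genes with a window, taken with no minimum level, so they are not matched to the members in expression. The 6 members without a window were MCM4, MCM5, GINS4, POLD3, RPA2 and RPA3. Among genes with a window, an E2F word was found in 4 of 4 of MCM2-7 and 3 of 3 licensing genes. It was found in 3 of 4 polymerase epsilon genes, 1 of 6 ORC genes and 0 of 3 polymerase delta genes. CCAAT, also searched on both strands, stood in 24 of the 39 (61.5%) and in 39.7% of all genes. The 19 members with an E2F word had a median log2 CPM ratio of -0.44 (from -1.13 to 0.51) and the 20 without one -0.16 (from -1.07 to 1.31), 2 ranges that overlap over most of their length. A match describes letters only, and the part of these words in the ratios was not tested.

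Across the replication genes, transcripts were mostly somewhat lower in the knockdown library. At least 1 FPKM in the higher library was reached by 30 of the 45, of which 27 reached it in both libraries, ORC3 and RFC3 in the control library alone and GINS1 in the knockdown library alone. For these 30 the log2 ratio of knockdown to control, taken after adding 1 to each FPKM, had a median of -0.37, and for all 8957 genes of that level it had a median of -0.15 with an SD over genes of 0.63. Of the 30, 21 (70%) lay below the median of all genes, where 50% of all genes lie by construction. At least 1.5-fold lower were 7 of 30 (23.3%): MCM3, MCM5, MCM7, CDC45, RFC2, RFC5 and FEN1. The share among all genes of that level was 18.2%, so the count is close to the background and is no result about these genes. At least 1.5-fold higher was POLD4 alone, 1 of 30 (3.33%, background 8.45%). None was at least 2-fold lower (background 6.2%) or higher (background 2.53%). The histogram of log2 ratios shows both distributions.

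**Figure D1:**
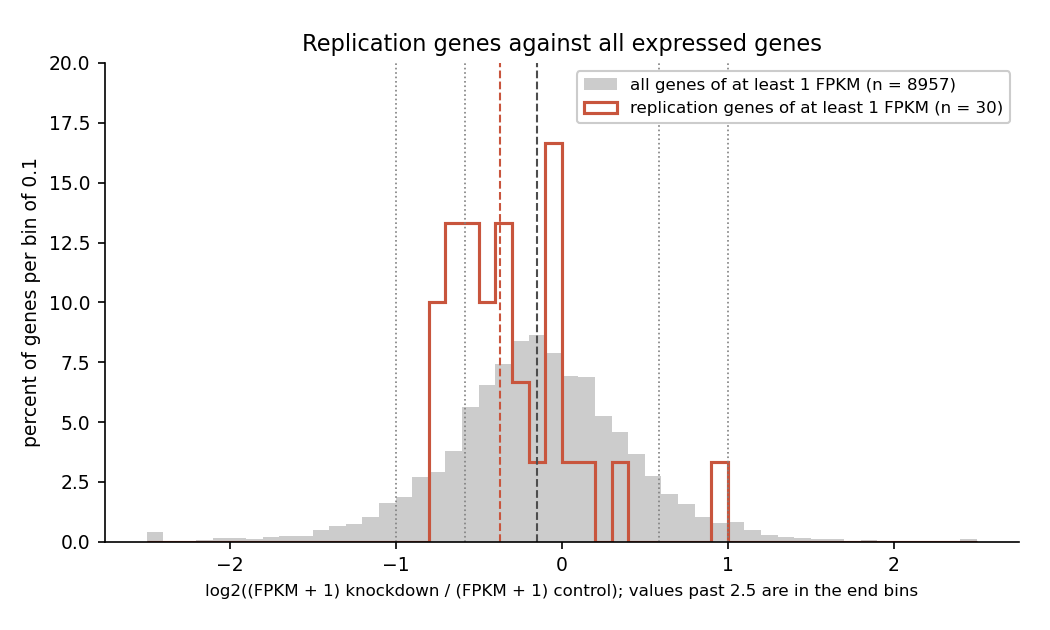
Percent of genes per 0.1-wide bin of the log2 ratio of knockdown to control on FPKM + 1, for all 8957 genes of at least 1 FPKM (grey) and for the 30 replication genes of that level (red outline); dashed lines are the medians (-0.15 and -0.37) and dotted lines mark 1.5-fold and 2-fold. The median of the replication genes lies left of that of all genes, with 21 of the 30 below the median of all genes and POLD4 farthest to the right.

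The counts of genes past a threshold moved with the scaling, while the distance from the median of all genes did not change side. After the ratios were centred on the median of all genes, or after upper-quartile scaling, 0 of 30 members were at least 1.5-fold lower, against 12.6% and 10.8% of all genes. After TPM rescaling, which sets the FPKM of each library to the same sum, 21 of the 35 members then at 1 FPKM or above (60%) were, against 40.2% of all genes. With a pseudocount of 0.1 in place of 1 it was 13 of 30 (43.3%), against 27% of all genes. The share past 1.5-fold was thus above that of all genes under some settings and below it under others. TPM rescaling moved the median of all genes by -0.32 and upper-quartile scaling by 0.23. The median of the replication genes minus that of all genes was -0.22 as deposited and between -0.26 and -0.18 under the 10 alternatives. Median centring cannot change this difference, by construction. Upper-quartile scaling, TPM rescaling and protein-coding totals multiply each library by 1 factor. Such a factor acts on the difference only through the pseudocount and the genes that reach the minimum. These settings thus say little about its stability.

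FPKM + 1 compresses the ratios of weak genes, and 15 of the 45 members were under 1 FPKM in both libraries, so CPM ratios were also taken for every member. All 45 had at least 50 counts in the higher library, as did 12381 genes in all. By CPM 36 of 45 (80%) lay below 0 (background 64%), and the median log2 CPM ratio was -0.41 for the members and -0.24 for all such genes. The counting interval lay wholly below 1 for 28 members (62.2%, background 50.5%), wholly above 1 for 5 (11.1%, background 24.7%), and held 1 for 12. At least 1.5-fold lower by CPM were 18 (40%, background 30.8%) and at least 1.5-fold higher were 2, ORC4 and POLD4 (4.44%, background 11.5%). At least 2-fold lower were 6 (13.3%, background 16.5%): ORC3, RPA3, CDC45, POLD3, RFC5 and POLA1. Summed with an overlapping entry, as given below, POLD3, RFC5 and POLA1 were less than 2-fold lower. At least 2-fold higher was POLD4 (2.22%, background 5.02%). Of the 36 members below 0 on FPKM + 1, 7 came out above 0 with upper-quartile scaling and 9 with median centring, and 5 of those above 0 came out below it with TPM rescaling. Intervals here and below are 95% exact intervals of a ratio of 2 counts and cover counting error only.

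**Figure D2:**
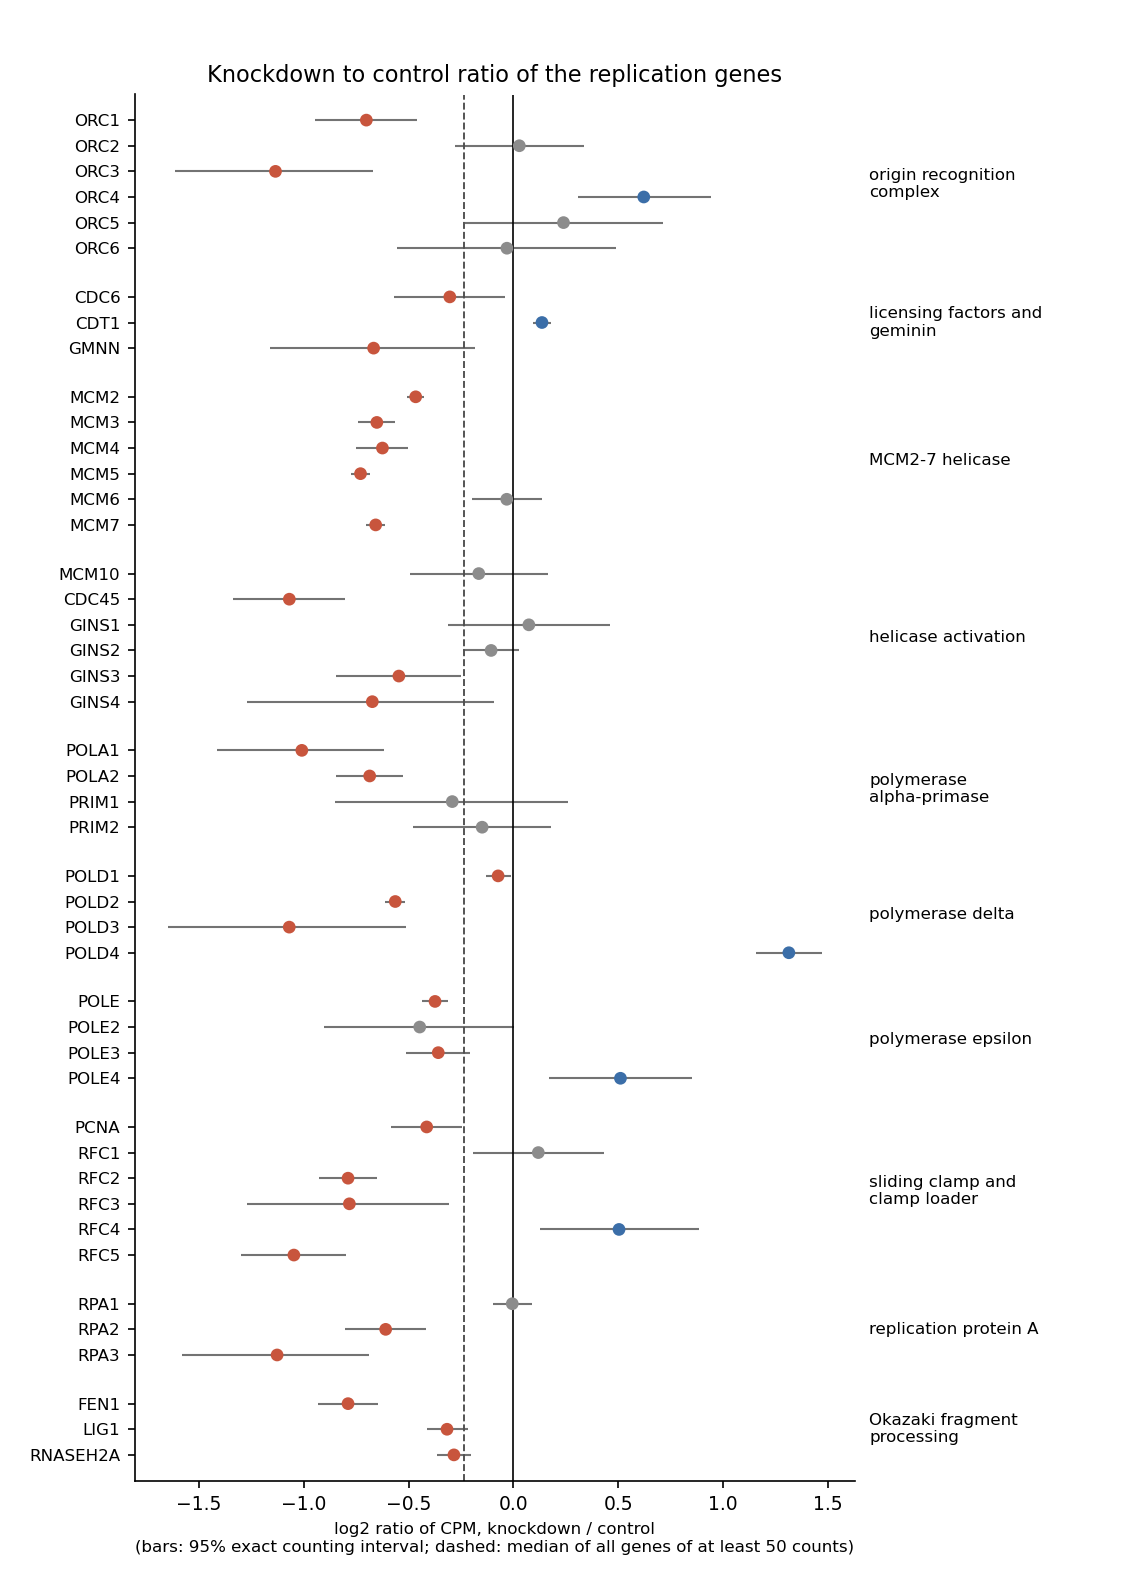
log2 ratio of CPM, knockdown over control (x axis), for each of the 45 replication genes grouped by complex; bars are 95% exact counting intervals, red points have an interval wholly below 1 as a ratio, blue wholly above 1 and grey hold 1, and the dashed line is the median of 12381 genes of at least 50 counts (-0.24). Of the 45, 28 are red, 5 are blue and 12 are grey, and most complexes hold more than 1 colour.

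ORC, the 6-subunit complex that marks origins, was expressed weakly and its subunits went different ways. ORC1, the subunit that comes and goes with the cell cycle (ENSG00000085840, chromosome 1, 52372829 to 52404459, GRCh38), was the strongest, with 3.58 FPKM in control and 2.20 in knockdown RNA. Its counts were 375 and 225, a CPM ratio of 0.615 (interval 0.519 to 0.728). ORC3, a core subunit, had 126 and 56 counts and a CPM ratio of 0.456 (0.327 to 0.629), the lowest of the 45 by CPM. These were the 2 subunits with an interval below 1. ORC4, another core subunit, went the other way, with 140 and 210 counts and a CPM ratio of 1.54 (1.24 to 1.92). Its span overlaps 2 genes on the opposite strand, ACVR2A (134 and 88 counts) and MBD5 (112 and 84). The sum with ACVR2A had a ratio of 1.12 (0.943 to 1.32), which held 1, and that with MBD5 had 1.20 (1.01 to 1.42). The higher value of ORC4 is therefore uncertain. The intervals of ORC2 (180 and 179 counts), ORC5 (73 and 84) and ORC6 (66 and 63) held 1. The median of the complex depended on which subunits entered: it was -0.34 relative to all genes for ORC1 and ORC3, the 2 at 1 FPKM or above, and 0.24 above all genes by CPM over the 6.

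CDT1, which loads the helicase together with CDC6, had the highest FPKM of all 45 genes and was not lower. It had 78.0 FPKM in control and 85.7 in knockdown RNA, from 7891 and 8457 counts, a CPM ratio of 1.10 (1.07 to 1.13). CDC6, its partner in loading, had 1.62 and 1.31 FPKM and a CPM ratio of 0.810 (0.675 to 0.973). GMNN, which encodes the CDT1 inhibitor geminin, had 96 and 59 counts and a CPM ratio of 0.630 (0.448 to 0.880). So the loader and its inhibitor lay on opposite sides of 1 in these libraries, each by less than 2-fold. With TPM rescaling CDT1 had a log2 ratio of -0.28 in place of 0.13.

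The MCM2-7 helicase, the ring that unwinds DNA, was the complex with the largest difference in counts, and 5 of its 6 subunits were lower by similar amounts. These 5 had an interval below 1, as had 50.5% of all genes of at least 50 counts. MCM5 (ENSG00000100297, chromosome 22, 35400063 to 35425430) had 44.7 FPKM in control and 27.0 in knockdown RNA, a CPM ratio of 0.603 (0.585 to 0.622). MCM7 (chromosome 7, 100092728 to 100101940) had 39.4 and 25.0 FPKM and a CPM ratio of 0.634 (0.615 to 0.655). MCM3 had 18.8 and 12.0 FPKM and a ratio of 0.637 (0.599 to 0.677). MCM4, the catalytic partner of MCM6 and MCM7, was weaker, with a ratio close to that of MCM3. MCM4 had 4.46 and 2.89 FPKM and a ratio of 0.649 (0.595 to 0.707). MCM2 (chromosome 3, 127598223 to 127622436), the subunit with the highest FPKM, had 61.6 and 44.6 FPKM and a ratio of 0.724 (0.704 to 0.745). Among MCM3, MCM4, MCM5 and MCM7 each pair of intervals overlapped, and that of MCM2 lay above those of MCM3, MCM5 and MCM7.

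MCM6 stood apart from the other MCM2-7 subunits. It (ENSG00000076003, chromosome 2, 135839626 to 135876426) had 5.18 FPKM in control and 5.06 in knockdown RNA. Its counts were 609 and 581, a CPM ratio of 0.978 with an interval of 0.872 to 1.10 that overlapped none of the other 5. Its start region holds 4 E2F words, but these are 2 overlapping pairs on opposite strands, beside 2 separate words each for MCM3 and MCM7. Summed over the 6 genes, the helicase took 37302 counts in control and 23979 in knockdown RNA, a CPM ratio of 0.659 (0.648 to 0.670). On FPKM + 1 the median of the complex minus that of all genes was -0.40, and under the 10 alternatives it lay between -0.51 and -0.40.

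The factors that turn the loaded ring into a moving helicase were uneven. CDC45 (ENSG00000093009, chromosome 22, 19479459 to 19520612), a member of the active helicase, had 2.95 and 1.41 FPKM. Its counts were 374 and 174, a CPM ratio of 0.477 (0.396 to 0.573), and its log2 ratio of -0.71 was the lowest of the 30 on FPKM + 1. The 4 GINS subunits, which bind MCM2-7 beside CDC45 as 1 complex, did not share a value. GINS2 was the strongest, with 10.6 and 9.83 FPKM and a ratio of 0.929 (0.846 to 1.02). GINS1 (114 and 117 counts) also had an interval that held 1. GINS3, with 238 and 159 counts, had a ratio of 0.685 (0.557 to 0.841), and GINS4, with only 67 and 41 counts, had 0.627 (0.415 to 0.939). GINS3 overlaps RP11-481J2.3 on the opposite strand (16 and 49 counts), and the sum of that pair had 0.840 (0.696 to 1.01), which held 1. The lower value of GINS3 is therefore uncertain. MCM10, which helps to activate the helicase, had 169 and 147 counts and a ratio of 0.892 (0.710 to 1.12).

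Polymerase alpha with primase lays down the primer of each new strand. Both polymerase subunits had intervals below 1, as had 50.5% of all genes of at least 50 counts. The intervals of both primase subunits held 1. POLA1, the catalytic subunit, had 165 and 80 counts and a CPM ratio of 0.497 (0.376 to 0.653). POLA2, the accessory subunit, had 3.85 and 2.39 FPKM and a ratio of 0.622 (0.557 to 0.694). PRIM1, the primase catalytic subunit, had 64 and 51 counts and a ratio of 0.817 (0.554 to 1.20), and PRIM2, the large primase subunit, had 166 and 146 and a ratio of 0.902 (0.717 to 1.13). The interval of PRIM1 overlapped those of both polymerase subunits, so no difference from them was detectable at its depth, and the interval of PRIM2 lay above both. POLA1 shares 678 bases with the pseudogene EEF1B2P3 on the opposite strand (64 and 76 counts). The sum of that pair had a ratio of 0.698 (0.566 to 0.8598), so the size of the POLA1 difference is uncertain. The PRIM2 interval did overlap that of the POLA1 sum.

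Polymerase delta, which copies the lagging strand, had the widest spread of ratios of the 10 groups. POLD4, its smallest subunit (ENSG00000175482, chromosome 11, 67350777 to 67356972), had 1.85 FPKM in control and 4.59 in knockdown RNA. Its counts were 464 and 1124, a CPM ratio of 2.48 (2.23 to 2.77), the highest of the 45. The deposited span of POLD4 lies wholly within that of RAD9A, a gene on the opposite strand with 813 and 483 counts. RAD9A had a ratio of 0.609 (0.543 to 0.683), and the sum of the entries, 1277 and 1607 counts, had 1.29 (1.20 to 1.39). Since no source used here gives the strand setting of the counting, the size of the POLD4 difference is uncertain, while the sum of the locus was higher too. POLD1, the catalytic subunit, was nearly level at 22.0 and 20.9 FPKM, a ratio of 0.951 (0.912 to 0.990). POLD2, the subunit that bridges the others, had 40.5 and 27.4 FPKM and a ratio of 0.677 (0.655 to 0.699). POLD3, which links the enzyme to PCNA, was scarce, with 86 and 40 counts and a ratio of 0.477 (0.319 to 0.702). It shares 4683 bases with AP001372.2 on the same strand (53 and 48 counts). The sum of that pair had a ratio of 0.649 (0.491 to 0.854), so the size of the POLD3 difference is uncertain.

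Polymerase epsilon, which copies the leading strand, was lower in its large subunit and in POLE3. POLE, the catalytic subunit, had 7.84 and 6.05 FPKM, from 5122 and 3856 counts, and a CPM ratio of 0.772 (0.740 to 0.805). POLE3, 1 of the 2 small histone-fold subunits, had 9.13 and 7.12 FPKM and a ratio of 0.780 (0.701 to 0.868). POLE4, its histone-fold partner, went the other way. It had 126 and 175 counts and a ratio of 1.42 (1.13 to 1.81), and the intervals of the partners did not overlap. POLE2, the B subunit, had 102 and 73 counts and a ratio of 0.734, with an interval of 0.536 to 1.0 that just held 1.

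The clamp and most of its loader had intervals below 1, as had 50.5% of all genes of at least 50 counts. PCNA, the ring that holds the polymerases on DNA (ENSG00000132646, chromosome 20, 5114953 to 5126626), had 14.2 FPKM in control and 10.6 in knockdown RNA, a CPM ratio of 0.751 (0.668 to 0.844). Among the loader subunits, RFC2 had 8.08 and 4.68 FPKM and a ratio of 0.579 (0.526 to 0.637), and RFC5 had 2.51 and 1.21 FPKM and a ratio of 0.484 (0.406 to 0.575). RFC3 had 104 and 59 counts and a ratio of 0.582 (0.415 to 0.808). The other 2 were not lower, although all 5 form 1 loader. RFC1, the large subunit that is particular to the PCNA loader, had 170 and 180 counts and an interval that held 1 (0.875 to 1.35). RFC4, a small subunit, had 102 and 141 counts and a ratio of 1.42 (1.09 to 1.85). Of the 15 pairs among PCNA and the RFC genes, 10 had intervals that did not overlap, as had 5 of the 6 pairs in polymerase delta. With no such share computed for pairs of other genes, these counts do not set the complexes apart.

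RPA, which coats single-stranded DNA as a trimer, differed by subunit. RPA1, the large subunit, was level at 8.18 and 8.15 FPKM, a CPM ratio of 0.996 (0.934 to 1.06). RPA2, the middle subunit, had 6.51 and 4.27 FPKM and a ratio of 0.656 (0.574 to 0.749). RPA3, the small subunit, had 141 and 63 counts and a ratio of 0.458 (0.335 to 0.621). The intervals of RPA2 and RPA3 overlapped each other and not that of RPA1.

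All 3 genes for processing Okazaki fragments, the short pieces of the lagging strand, had ratios below 1. So had 64% of all genes of at least 50 counts. LIG1 and RNASEH2A, with log2 CPM ratios of -0.32 and -0.28, lay near the median of all such genes, -0.24. FEN1, the flap nuclease (ENSG00000168496, chromosome 11, 61792637 to 61797244), had 11.2 and 6.49 FPKM, from 1142 and 645 counts, a CPM ratio of 0.579 (0.525 to 0.638). Most of the FEN1 span overlaps that of FADS2 on the same strand, which had 809 and 389 counts, and the sum of the entries had a ratio of 0.543 (0.503 to 0.586). FEN1 also shares 166 bases with TMEM258 on the opposite strand (2557 and 1831 counts). LIG1, the ligase that seals the fragments, had 6.77 and 5.44 FPKM and a ratio of 0.803 (0.750 to 0.859). RNASEH2A, the catalytic subunit of the ribonuclease that removes RNA from DNA, had 29.7 and 24.4 FPKM and a ratio of 0.822 (0.777 to 0.869). It lies within the span of HOOK2 on the opposite strand, which had 1153 and 1651 counts, and the sum of the entries was level at 1.01 (0.965 to 1.06). The lower value of RNASEH2A is therefore uncertain.

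Over all 10 groups, 45 of 87 pairs of genes within a group had counting intervals that did not overlap. The same share for pairs of other genes was not computed, so the count describes these pairs only. Relative to all genes, 6 groups had a median below that of all genes as deposited and under each alternative that gave a value: MCM2-7, polymerase epsilon, the clamp and loader, RPA and Okazaki processing under 10, and polymerase alpha with primase under 9, since none of its genes reached the minimum of 5 FPKM. The other 4, ORC, licensing, helicase activation and polymerase delta, lay on either side depending on the setting. Median centring cannot change these differences, and 1 factor per library acts on them only through the pseudocount and the genes that reach the minimum. The number of settings is therefore no measure of support. Most groups rest on 2 to 4 genes at 1 FPKM or above, so 1 gene moves the median.

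The plot of levels shows how far apart the genes of 1 complex were. In the control library the highest and lowest MCM2-7 subunits, MCM2 and MCM4, differed 13.8-fold in FPKM, and in the knockdown library 15.4-fold. CDT1 was 88.2-fold above GMNN in the control library and 154-fold in the knockdown library. Polymerase delta spanned 104-fold in the control library, from POLD2 to POLD3. The order of MCM genes depends on the length used. The lengths implied by the deposited counts, FPKM and count totals were longer than the union of exons in GENCODE release 29 for 44 of 45 members, by up to 3.1-fold. For POLD4 the implied length, 9456 bases, exceeded the deposited span of 6196, so it cannot be an exon length within that span. Levels between genes and the rule of 1 FPKM rest on these unexplained lengths. With the union length in place of the implied one, the FPKM of MCM7 was 88.2 in the control library, beside 87.7 for MCM2 and 56.1 for MCM5. The lead of MCM2 did not hold there. In the knockdown library it did, with 63.5 for MCM2, 55.9 for MCM7 and 33.9 for MCM5. On that scale CDT1 (89.1 in control and 97.9 in knockdown RNA) was below POLD2 (95.2 and 64.5) in the control library and above it in the knockdown library. In both scales MCM2, MCM5 and MCM7 formed the upper part of the complex, MCM3 came next and MCM4 and MCM6 were lowest, and in the control library MCM4 and MCM6 changed places between the scales (7.49 for MCM4 and 5.57 for MCM6 with the union length). In the knockdown library MCM6 was above MCM4 on both scales (5.45 and 4.86 with the union length).

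**Figure D3:**
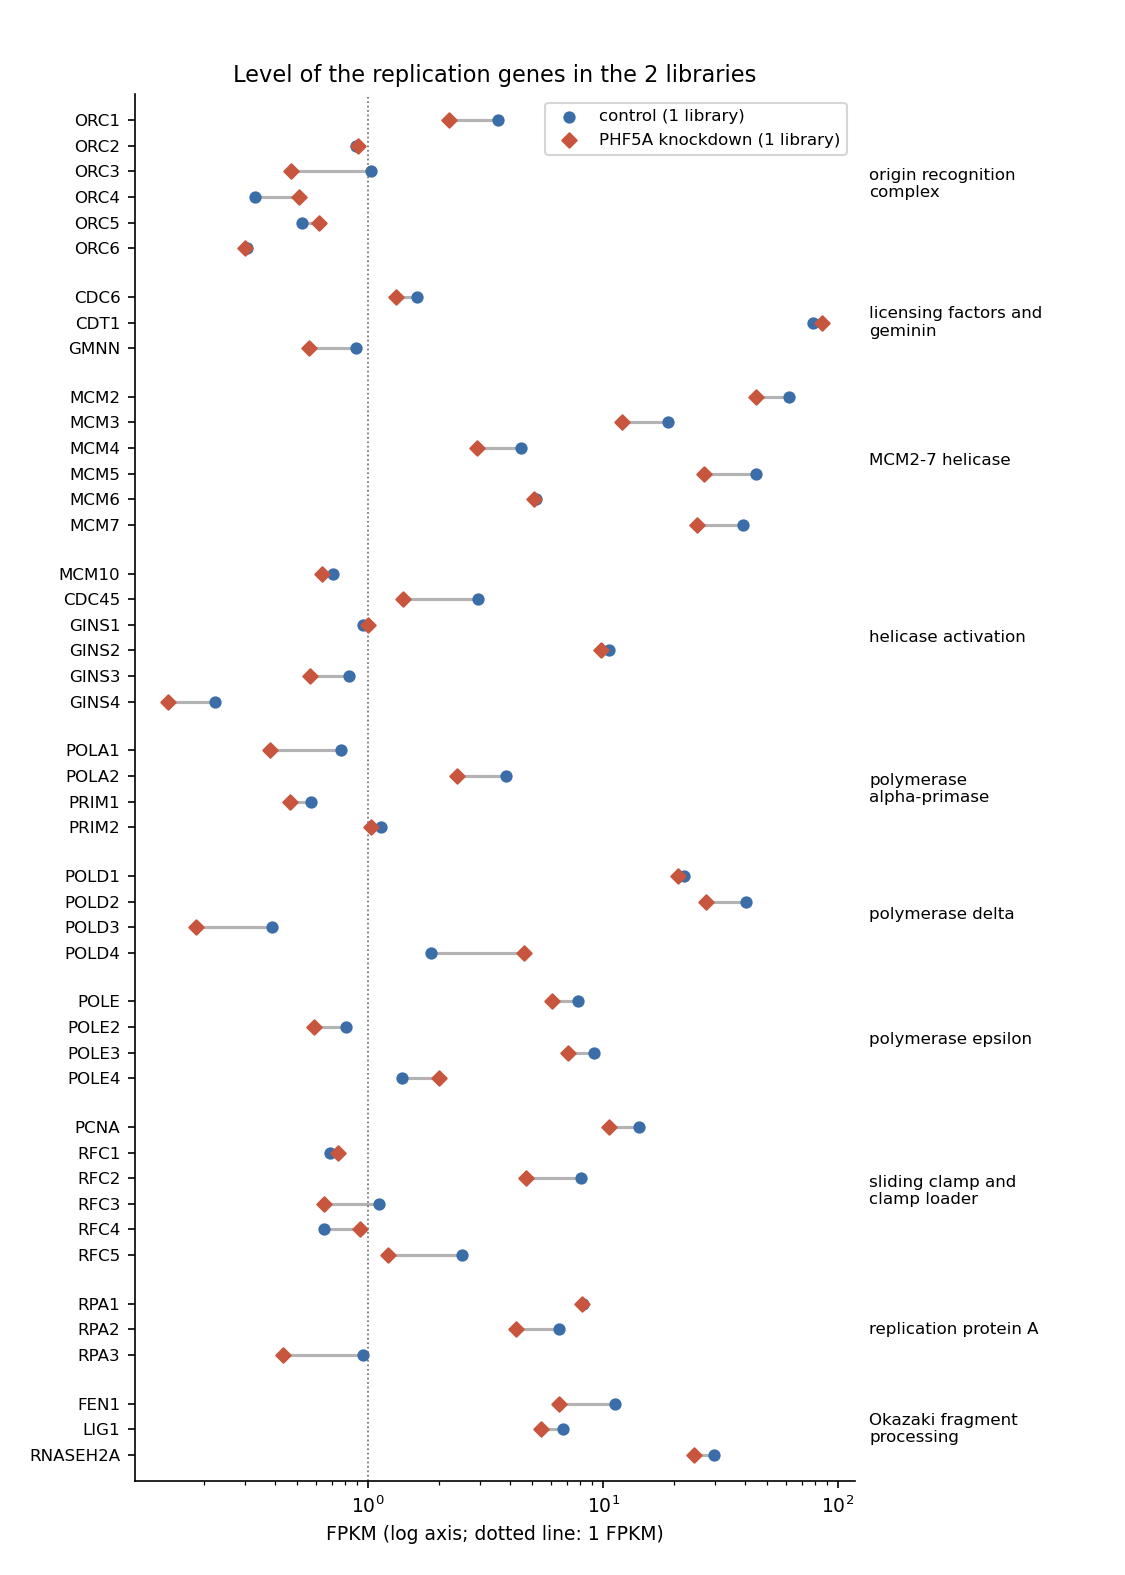
FPKM of the 45 replication genes on a log axis in the control library (blue circles) and the PHF5A knockdown library (red diamonds), 1 library each, grouped by complex; the dotted line marks 1 FPKM and grey bars join the libraries. CDT1 lies highest in both libraries, and in each complex the span over genes is wider than the gap between the libraries.

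Level followed the base composition of the transcript, and the ratio did not. Across the 45 genes, Spearman's rho between the GC content of the longest coding transcript and FPKM was 0.76 in control and 0.76 in knockdown RNA, and 0.82 with the union length in the control library. Across 11968 protein-coding genes of at least 50 counts over the libraries it was 0.52 in the control library. The points share 1 library each and are no replicates, so no p is given. The 15 members under 1 FPKM had a median GC content of 43.3% and none above 48.1%, and the 30 others had a median of 51.2%. CDT1 (64.9%), POLD1 (65.0%), POLD2 (59.1%) and MCM2 (58.1%) were rich in GC and abundant, and ORC4 (37.7%) was poor in GC and scarce. The part of GC content in the levels was not tested. For the log2 CPM ratio rho with GC content was -0.09 and with the number of exons -0.12. The members had a median of 13 exons, against 9 for protein-coding genes of at least 1 FPKM. By exon number the median log2 CPM ratio of the members was -0.41 for 15 genes of 1 to 9 exons, -0.45 for 22 of 10 to 19 and -0.34 for 8 of 20 or more. For all protein-coding genes of at least 50 counts the medians in these classes were -0.16, -0.27 and -0.40, so the members lay below them in the first 2 classes and not in the last.

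**Figure D4:**
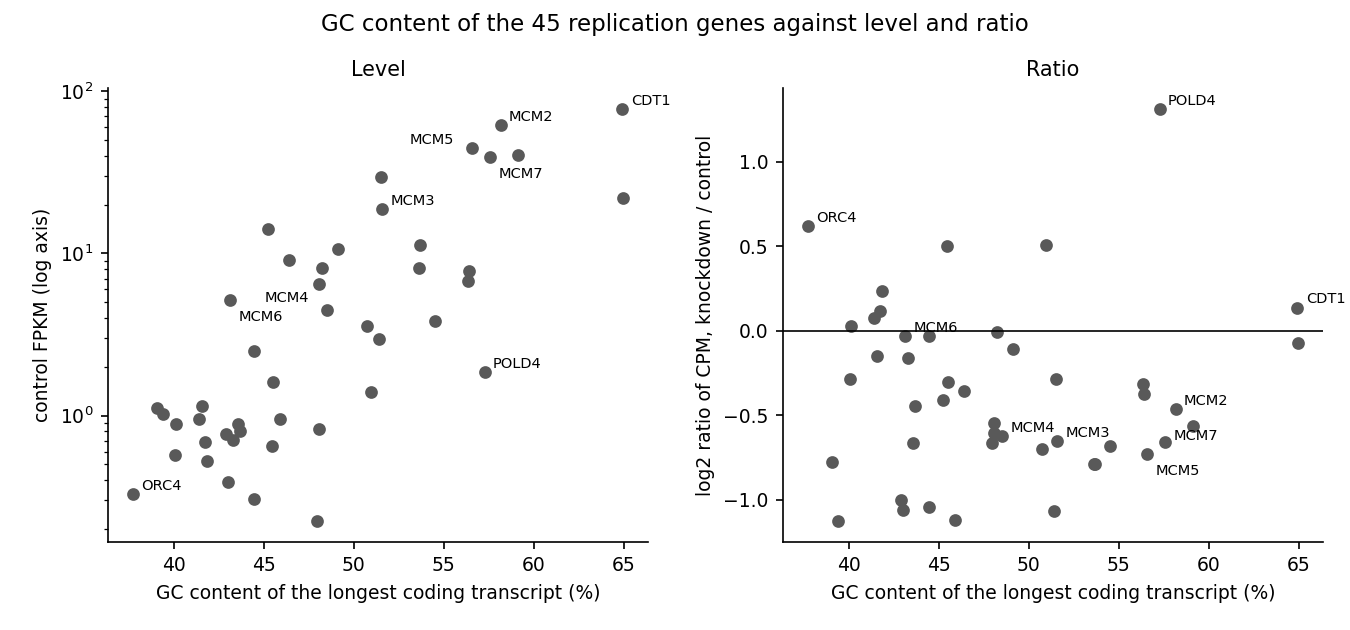
GC content of the longest coding transcript in GENCODE release 29 (x axis, %) against control FPKM on a log axis (left) and against the log2 CPM ratio of knockdown to control (right), 1 point per replication gene (n = 45). Points climb to the right in the left panel (rho 0.76) and show no slope in the right panel (rho -0.09).

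Of the 45 members 15 overlapped 18 entries with at least 10% of their counts in either library, 14 of them on the opposite strand. RFC5 shares 437 bases with WSB2 on the opposite strand, which had 1601 and 930 counts, and the sum of that pair had a ratio of 0.573 (0.532 to 0.616). RPA1 shares 933 bases with SMYD4 on the opposite strand (564 and 270 counts), and while RPA1 alone was level the sum had a ratio of 0.882 (0.832 to 0.935). RFC4 touches EIF4A2 on the opposite strand over 21 bases (949 and 937 counts), and the sum of that pair had a ratio of 1.05 (0.965 to 1.15). PRIM1 shares 33 bases with NACA on the same strand, which had 1217 and 1083 counts, many more than PRIM1. GINS2 shares 7 bases with GSE1 on the opposite strand, which had 940 and 1569 counts, and the sum of that pair had a ratio of 1.32 (1.24 to 1.40). How many of the shared reads went to either gene of a pair was not tested. Pseudogene entries named after members held at most 6 counts in either library.

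Beyond these 45 genes, 64 genes of the same pathway were taken as 8 lists: 38 reached 1 FPKM, with 5 at least 1.5-fold lower (13.2%, background 18.2%) and 1 at least 1.5-fold higher (2.63%, background 8.45%), and a median log2 ratio of -0.30 beside -0.15 for all genes. The factors that trigger origin firing were not lower as a list. Of 3 expressed among 8, RECQL4 had 20.1 and 21.2 FPKM, DBF4B had 1.64 and 2.01 and TICRR had 1.35 and 1.23, with a median log2 ratio of 0.07. Among 5 expressed genes of fork protection and alternative clamp loading, the median was -0.38. MCMBP, which binds MCM proteins, had 5.63 and 2.87 FPKM (log2 ratio -0.78), and TIMELESS, of the fork protection complex, had 6.42 and 4.18 (-0.52). RNASEH2C, a partner of RNASEH2A, had 4.94 and 7.26 FPKM (0.48). Of the 5 expressed genes of deoxynucleotide supply, none was past 1.5-fold, with a median of -0.31. Thymidine kinase TK1 had 104.5 and 73.5 FPKM (-0.50) and thymidylate synthase TYMS had 8.30 and 5.36 (-0.55). DTYMK, which phosphorylates thymidylate, had 16.7 and 13.3 (-0.31).

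Of the 9 genes of chromatin assembly at forks, all expressed, 1 was at least 2-fold lower (11.1%, background 6.2%) and 1 at least 1.5-fold higher (11.1%, background 8.45%), counts too small to set the list apart. SSRP1 had 25.9 and 10.6 FPKM (log2 ratio -1.21). SUPT16H, which forms the histone chaperone FACT with SSRP1, had 3.68 and 6.25 FPKM (0.63), so the partners lay on opposite sides. UHRF1, which brings the maintenance methyltransferase to new DNA, had 3.37 and 1.98 FPKM (-0.55). The topoisomerases, which relieve twisting ahead of the fork, had a median of -0.39, with TOP2A at 1.87 and 1.08 FPKM, TOP2B at 1.30 and 0.754 and TOP1 at 6.15 and 5.68. Of the E2F and RB regulators 4 of 13 were expressed, with a median of -0.11. E2F2 had 7.24 and 3.62 FPKM (-0.83), E2F4 had 14.9 and 11.4 (-0.36) and their dimer partner TFDP1 had 6.87 and 8.42 (0.26). The 9 genes listed for the turnover of CDT1 and other cycle proteins, most of them from ubiquitin ligases, were all expressed. Of these 9, 2 were at least 1.5-fold lower (22.2%, near the background of 18.2%), and the median was -0.41. RBX1, the RING subunit, had 11.1 and 6.19 FPKM (-0.75), the scaffold CUL1 had 2.26 and 1.16 (-0.59) and DTL, which directs a CUL4 ligase to CDT1, had 2.07 and 1.16 (-0.51). MCM8 and MCM9, relatives of MCM2-7, were under 1 FPKM in both libraries.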

How the data were processed

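RNA-seq was analysed from 1 control and 1 PHF5A knockdown library of HCT116 cells, made from Trizol-extracted total RNA with a stranded TruSeq kit, per the labels' protocols. HISAT2 2.0.4 and Cuffdiff were used with hg38 (GRCh38), per the submitters' processing notes. No source used here gives the annotation release, strand setting or length rule of the counting. The deposited table held whole-number counts and FPKM values per gene and library, per the file headers. Of 50869 lines, 2 that held 1 broken entry were left out. The library totals, 26552789 and 25897412 counts, set the precision.

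The log2 ratio was taken on FPKM + 1, a pseudocount that shrinks the ratios of weak genes. Genes entered if the higher of the values reached 1 FPKM. Thresholds of 1.5-fold and 2-fold are rules of size. CPM ratios carry 95% exact conditional binomial (Clopper-Pearson) intervals, which cover counting error only. Where a median or count used CPM, a prior of 0.5 counts was added. Exon number, union exon length, strand and GC content came from GENCODE release 29, matched by gene identifier for all 45 members. Start regions came from RefSeq (GRCh38.p14). All members could be named, with up to 3 expressed genes of each pathway list by absolute log2 ratio, and marker genes by FPKM. Overlapping entries were named at 10% of the member's counts. Alternatives were pseudocounts of 0.1 and 0.5, no minimum, a minimum of 5 FPKM, median centring, upper-quartile scaling, TPM, protein-coding totals and CPM with a prior of 0.5. CPM with a minimum of 50 counts and the union length were chosen after seeing the data. The members and lists were chosen with earlier results of these data known. The 2-fold rule, on larger planted changes, and the interval were tried on simulated counts. The 1.5-fold rule was not tested. The simulated counts carried counting error only, which is what the interval assumes, so they say nothing of other error. Software was matplotlib 3.10.9, scipy 1.17.1, pandas 2.3.3 and numpy 2.4.6 under Python 3.11.15.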

Additional observations from a re-analysis of the deposited data

How the results depend on the processing

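No paired analysis was possible because each treatment had a single library. The median of the replication genes minus that of all genes stayed between -0.26 and -0.18, a difference that median centring cannot change by construction. The medians and counts below move with the setting, and the cause was not tested beyond what each setting does by construction.

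Percentages in brackets are the shares of all genes. As deposited, 7 of 30 members were at least 1.5-fold lower (18.2%) and 1 at least 1.5-fold higher (8.45%). None was at least 2-fold lower (6.2%) or higher (2.53%). With a pseudocount of 0.1, 13 of 30 were at least 1.5-fold lower (27%), 1 at least 2-fold lower (12.6%) and 1 at least 2-fold higher (5.24%). With 0.5, 1 was at least 2-fold higher (3.64%). With a minimum of 5 FPKM 0 of 18 were 1.5-fold higher (10.2%). Median centring and upper-quartile scaling each gave 0 of 30 at least 1.5-fold lower (12.6% and 10.8%). Each gave 1 at least 2-fold higher (3.85% and 4.61%), with members' medians of -0.22 and -0.11. Protein-coding totals gave 2 of 37 at least 1.5-fold lower (14.6%) and 1 at least 2-fold higher (4.01%), with a median of -0.19. TPM rescaling gave 21 of 35 at least 1.5-fold lower (40.2%) and 6 at least 2-fold lower (14.5%), with a median of -0.68. CPM with a prior of 0.5 gave 13 of 30 at least 1.5-fold lower (27.8%), 3 at least 2-fold lower (13.8%) and 1 at least 2-fold higher (5.64%). CPM with at least 50 counts gave 18 of 45 at least 1.5-fold lower (30.8%) and 2 higher (11.5%). Past 2-fold it gave 6 lower (16.5%) and 1 higher (5.02%).

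Relative to all genes, group medians moved as follows. A minimum of 5 FPKM left no gene of ORC or of polymerase alpha with primase, so these have no value there. With no minimum they were 0.046 for ORC, -0.14 for licensing, -0.51 for MCM2-7, -0.11 for polymerase delta, -0.40 for RPA and -0.23 for Okazaki processing. With a minimum of 5 FPKM they were -0.47 for MCM2-7 and -0.17 for polymerase delta, and with TPM rescaling -0.47 and -0.0017. With protein-coding totals they were -0.079 for licensing and -0.38 for RPA. CPM with a prior of 0.5 gave -0.72 for ORC. CPM with at least 50 counts gave 0.24 for ORC, -0.066 for licensing, -0.081 for polymerase delta and -0.37 for RPA. None of the 8 genes past 1.5-fold as deposited changed sign under these alternatives, while the group medians of ORC, licensing, helicase activation and polymerase delta did. Depth limits the scarce genes, such as PRIM1 (64 and 51 counts) and ORC6 (66 and 63).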

Other observations

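RRM2B, the p53-inducible small subunit of ribonucleotide reductase, had the lowest CPM ratio of the 64 pathway genes outside the 45 members, though not the lowest log2 ratio on FPKM + 1 (-0.68, against -1.21 for SSRP1), and it was singled out after its values were seen. It had 198 counts in control and 23 in knockdown RNA, 8.40-fold lower by CPM (95% exact counting interval 5.44 to 13.6), although both libraries were under 1 FPKM. RRM2, the S-phase form of the same subunit, had 625 and 449 counts, 1.36-fold lower (1.20 to 1.54), and the intervals of the 2 forms did not overlap. RRM1, their large partner, had 400 and 482 counts. RRM1 and RRM2 were added beside it for the same reason.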
